A study of Homo sapiens with 6 samples.

Results

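The ADAM, ADAMTS and ADAMTS-like genes were followed in tumors grown from the lung squamous carcinoma cell line CRL-5889 (human, established), carrying either the TRA2B-DNAH5 fusion or the vector. The family was defined by symbol (ADAM, ADAMTS or ADAMTSL followed by a digit in the platform annotation) among probe sets naming exactly 1 gene, with the probe set of the highest mean over the arrays used for each gene. This gave 44 genes of the 18132 with a probe set of their own. Of these, 42 code for proteins, ADAM3A is a transcribed pseudogene and ADAMTSL4-AS1 is an antisense RNA. Of the 44, 28 passed a filter on dim probe sets, a mean log2 level of 4.94 (the 30th percentile of all probe sets), and were tested among 13694 genes.

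Cells transfected with the fusion or with the vector were grown as xenografts in nude mice, and the tumors were taken at 4 weeks, 3 per group, with 1 Affymetrix array per tumor. The comparison asks which transcripts differ between tumors with and without the fusion. The labels do not say whether transfected cells were a pool or a clone, so a difference between transfected populations and an effect of the fusion cannot be told apart. Nude mice lack T cells made in the thymus and keep their own stroma, vessels and innate immune cells. The tumors are labelled as biological replicates with no mouse named, so the p-values measure only the spread between these tumors. The probes were designed for human transcripts, and how far mouse RNA binds them was not tested. In such bulk tissue, fewer cells of a type and less RNA per cell cannot be told apart.

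ADAMs are membrane-anchored proteins with a metalloproteinase and a disintegrin domain. The catalytically active ones cut the extracellular parts of growth factors, cytokine receptors and adhesion molecules off the cell surface, a step called shedding, while others have lost the active site and act in adhesion. ADAMTS proteins are secreted, carry thrombospondin type 1 repeats and cut matrix proteins such as proteoglycans, procollagens and von Willebrand factor. ADAMTS-like proteins share the repeats and lack the protease domain. Several shedding ADAMs are studied in lung carcinoma because they release ligands of the EGF receptor.

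No member of the family passed the test between fusion and vector tumors. By limma with Benjamini-Hochberg adjustment over all genes, 0 of 28 members passed adjusted p 0.05, where 0.073% of all genes did, and the smallest adjusted p of a member was 0.683. At an unadjusted limma p below 0.05 there was 1 member higher, ADAMTSL4 (background 3.16% of all genes), and 1 lower, ADAM28 (background 2.73%). The shares of members, 3.57% in each direction, were near these backgrounds. The median log2 fold change, fusion minus vector, was 0.032 over the 28 members and 0.0020 over all genes tested. A log2 fold change beyond 0.25 in size was seen in 6 of 28 members (background 9.43% of all genes), namely ADAMTSL4, ADAM10, ADAM32, ADAM28, ADAMTS20 and ADAM19. Each of the 6 had a value under that size when some single tumor was left out. The differences ran from -0.32 to 0.30 on the log2 scale, and the median size was 0.088 for members and 0.085 for all genes.

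A p that misses the threshold does not show equal levels, so the intervals are given as well. The 95% confidence interval of the log2 fold change lay within 1.5-fold in both directions for 23 of 28 members, against 89.6% of all genes. It lay within 2-fold for all 28, against 98.5% of all genes. The 5 with wider intervals were ADAM10, ADAM19, ADAM28, ADAM32 and ADAMTS20. The lowest bound was -0.63, for ADAM28, and the highest 0.82, for ADAM10. The spread between tumors of a group was like that of other genes, with a median SD of 0.139 in the family and 0.139 over all genes tested.

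**Figure D1:**
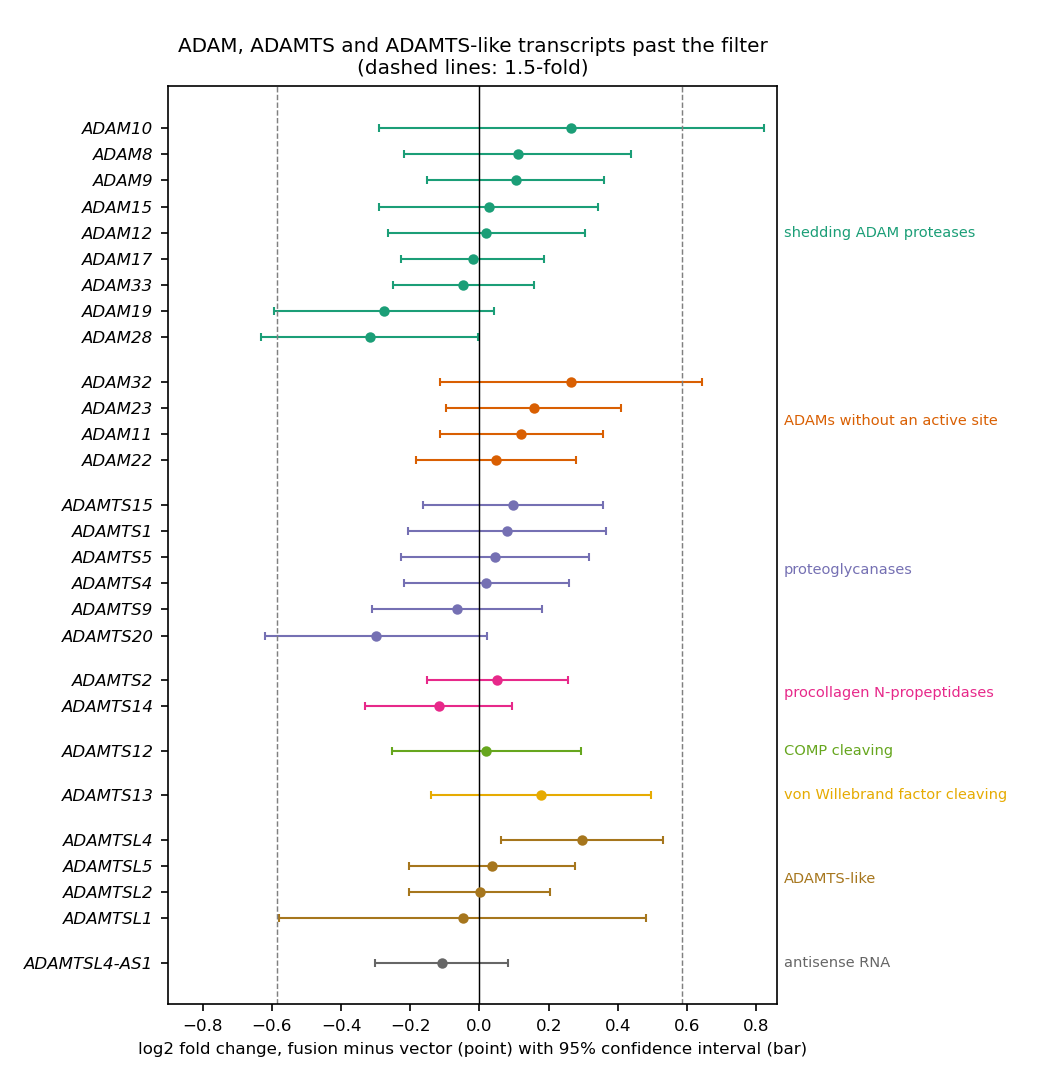
Log2 fold change (fusion minus vector) of the 28 members past the filter, grouped by role, with 95% confidence intervals from limma and dashed lines at 1.5-fold. The intervals of ADAMTSL4 (0.063 to 0.53) and ADAM28 (-0.63 to -0.0035) exclude 0 before adjustment, and the other 26 include it.

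Vector tumor 1 stood apart from the other arrays on the first principal component (score 30.1, against -8.58 to -3.68), which held 45.1% of the variance. Pairs of arrays correlated between 0.989 and 0.997 over all probe sets. Among squamous and epithelial markers, SOX2 (9.24), PERP (9.19) and KRT18 (8.56) were bright. KRT5 (5.12) and KRT14 (5.70) lay just above the filter, and DSG3, DSC3, EPCAM and CDH1 were below it. Several defining squamous markers thus gave little signal. TP63, KRT6A, KRT16 and KRT17 were not analysed here, so their signal is not known. SOX2 had a log2 fold change of -0.83 (limma adjusted p = 0.369) with all fusion tumors below all vector tumors (background 5.74% of all genes tested). The other tested squamous markers KRT5, KRT14, PKP1 and PERP had -0.13, 0.016, -0.049 and -0.11. No fibroblast marker passed the test (limma, 0 of 10 tested). The mean of the 12 lay between 6.38 and 6.50 across fusion tumors, above the 6.15 to 6.33 of vector tumors, 8 of the 10 tested were above 0, FBN1 (-0.50) and ACTA2 (-0.13) were below it, and DCN and LUM were below the filter. The collagens named later are in this list as well. The mean of the 5 adipocyte markers was 5.50 to 5.54 in fusion and 5.68 to 5.78 in vector tumors, with FABP4 and LEP below the filter. Markers of endothelial cells (5.25 to 5.30 and 5.18 to 5.34) and of macrophages and leukocytes (5.11 to 5.18 and 5.03 to 5.11) gave means near the filter level. PTPRC, CD14, CD163 and LYZ were below it. CD68, at a mean level of 8.11, had a log2 fold change of 0.80 (limma adjusted p = 0.112). The other tested leukocyte markers, CSF1R, ITGAM and AIF1, had 0.17, 0.020 and -0.039. The mean of the 5 skeletal muscle markers measured was highest in vector tumor 1 (6.31, against 5.47 to 6.16 in the other tumors), with MYH1 and MYH2 below the filter. That of the 2 erythroid markers measured was also highest there (7.03, against 6.49 to 6.83). The part of any of these cells in the results was not tested. TRA2B had a log2 fold change of 0.039 and DNAH5 of -0.0043, while which stretches of them the construct carries is not stated in the labels.

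The shedding ADAM proteases were all measured, and 9 of 9 passed the filter. None passed the test, with 5 log2 fold changes above 0 and 4 below, a median of 0.020 and a range of -0.32 to 0.27. ADAM9, ADAM17, ADAM15 and ADAM10 gave the brightest probe sets of this group. Brightness depends on the probe as well as on the transcript, so it ranks no gene against another. ADAM9, a sheddase of growth factors and adhesion proteins, read log2 levels of 12.75, 12.80 and 12.71 in fusion tumors and of 12.44, 12.69 and 12.81 in the vector tumors (here and in later sentences in the order of replicates 1, 2 and 3). The groups overlapped, with vector tumor 1 the lowest and vector tumor 3 the highest (log2 fold change 0.10, SE 0.11, limma adjusted p = 0.965). Without vector tumor 1 the log2 fold change of ADAM9 was 0.0012.

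ADAM9 was also read by 3 other probe sets. The one close in level to the probe set used (12.68) had nearly the same values and a difference of 0.080. The remaining pair, at 11.17 and 10.80, gave 0.23 and 0.29, and in both of them all fusion tumors lay above all vector tumors. In the dimmer of this pair the fusion tumors read 10.89, 10.92 and 11.04 and the vector tumors 10.32, 10.84 and 10.81. The gap between the groups there was small (10.89 against 10.84), and vector tumor 1 lay well below the rest. The exact two-sided permutation p was 0.1 for each of this pair, the smallest that 3 against 3 tumors can give. All 4 ADAM9 probe sets thus had positive differences, from 0.080 to 0.29.

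ADAM17, the sheddase of tumor necrosis factor and of several EGF receptor ligands, was the steadiest of the bright members. Its levels were 10.01, 10.07 and 10.02 in fusion tumors and 9.95, 10.13 and 10.07 in vector tumors. All fusion values fell inside the range of the vector values (log2 fold change -0.020, 95% confidence interval -0.23 to 0.19). Of 3 dimmer ADAM17 probe sets, the one at 6.25 gave 0.26, with overlapping groups and with vector tumor 1 lowest at 5.68, and the others gave 0.0057 and 0.031. ADAM10, the sheddase of Notch receptors and cadherins, read 7.34, 7.49 and 7.62 in fusion tumors and 6.58, 7.56 and 7.53 in vector tumors. Vector tumor 1 alone lay below the others, and without it the log2 fold change of ADAM10 went from 0.27 to -0.057. The 3 other ADAM10 probe sets gave 0.031 to 0.17. ADAM15, which binds integrins through its disintegrin domain, read 8.46, 8.08 and 7.94 in fusion tumors and 8.21, 8.08 and 8.10 in vector tumors. The fusion tumors spread on both sides of the vector tumors, with fusion tumor 1 highest and fusion tumor 3 lowest (log2 fold change 0.026, exact permutation p = 1).

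ADAM28 and ADAM19 had the lowest log2 fold changes of the shedding group. ADAM28, a sheddase reported in lung carcinoma, read 5.35, 5.36 and 5.25 in fusion tumors and 5.66, 5.36 and 5.90 in vector tumors. Vector tumor 2 lay among the fusion tumors, so the groups overlapped (log2 fold change -0.32, SE 0.14, unadjusted p = 0.0480 and adjusted p = 0.839 by limma; exact permutation p = 0.2). Its log2 fold change was -0.19 without vector tumor 3 and -0.46 without vector tumor 2. Its 3 other probe sets were below the filter and gave -0.18, -0.0010 and 0.18, the only family member whose probe sets differed in sign by more than 0.5. ADAM19, a sheddase of neuregulin known from heart development, read 5.72, 5.95 and 5.84 in fusion tumors and 6.40, 5.90 and 6.04 in vector tumors. Vector tumor 1 was highest and vector tumor 2 lay among the fusion tumors (log2 fold change -0.28, SE 0.14, limma adjusted p = 0.916). Without vector tumor 1 the value was -0.13. All 4 ADAM19 probe sets gave negative differences, from -0.45 to -0.12, and in 2 of them all fusion tumors lay below all vector tumors. The remaining shedding members were close to 0. ADAM8, which is found on leukocytes and on carcinoma cells, stood at 0.11, ADAM12, a sheddase of HB-EGF, at 0.020 and ADAM33, known from airway smooth muscle, at -0.046. In ADAM8, fusion tumor 1 (6.86) lay above the 5 other tumors (6.33 to 6.54).

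**Figure D2:**
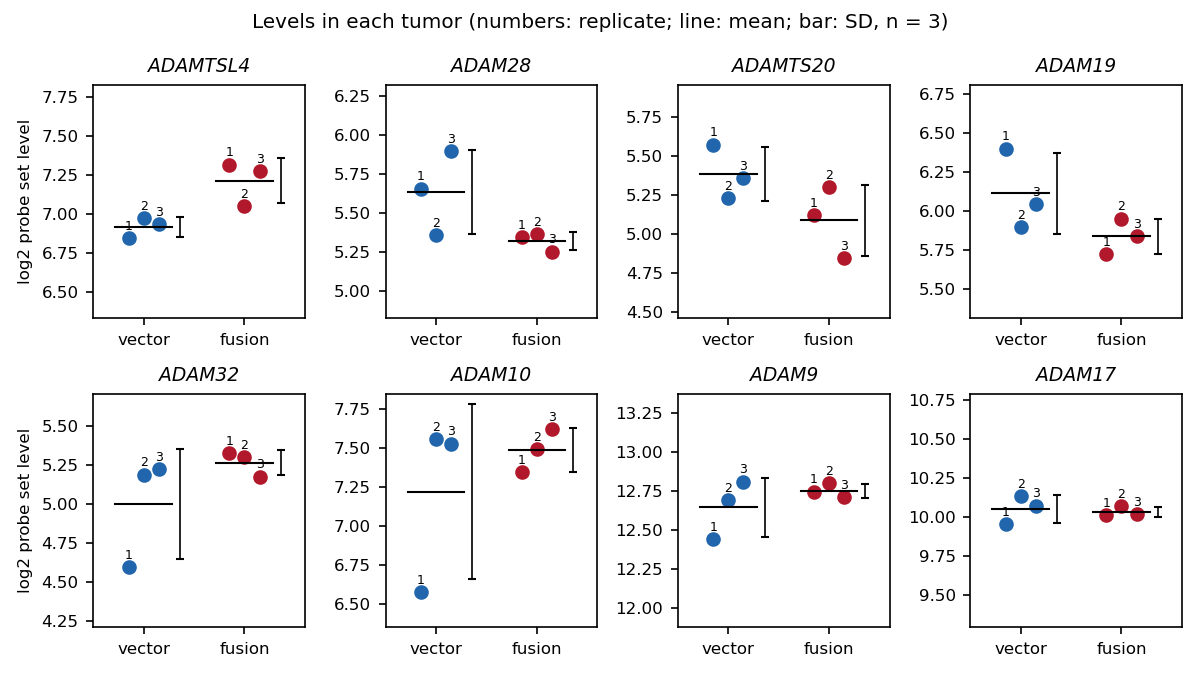
Log2 level of 8 members in each tumor, every panel spanning 1.5 log2 units, with replicate numbers, group means (line) and SD (bar, n = 3). ADAMTSL4 is the member here whose groups do not overlap, and vector tumor 1 lies apart in ADAM32 (4.60) and ADAM10 (6.58).

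ADAMs without an active site had 4 of 7 genes past the filter, and none passed the test. All 4 log2 fold changes were above 0, from 0.048 to 0.26. ADAM23 and ADAM22, receptors of LGI proteins in the nervous system, and ADAM11, expressed mainly in brain, are adhesion proteins. ADAM23 read 7.09, 7.12 and 7.32 in fusion tumors and 7.08, 7.12 and 6.87 in vector tumors. Fusion tumor 3 was highest and vector tumor 3 lowest, and the middle values met (log2 fold change 0.16, limma adjusted p = 0.962). ADAM11 read 7.78, 7.51 and 7.56 in fusion tumors and 7.55, 7.42 and 7.52 in vector tumors. Fusion tumor 1 stood above the rest, and the others overlapped (log2 fold change 0.12, adjusted p = 0.963). ADAM32, a gene expressed mainly in testis, read 5.33, 5.30 and 5.18 in fusion tumors and 4.60, 5.19 and 5.22 in vector tumors. The log2 fold change of 0.26 (adjusted p = 0.957) rested on vector tumor 1, without which it was 0.061. ADAM22 stood at 0.048 (95% confidence interval -0.18 to 0.28).

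ADAM9 and ADAM32 lie side by side on chromosome 8, followed by ADAM3A, ADAM18 and ADAM2, with no other protein-coding gene between them in the RefSeq order (GRCh38.p14). The differences of the 5 in this order were 0.10, 0.26, 0.28, 0.062 and 0.036. ADAM3A, ADAM18 and ADAM2 were below the filter, at mean log2 levels of 3.51, 3.80 and 3.22, beside ADAM9 at 12.70. Other members that adjoin each other also gave small differences. They were 0.079 and 0.044 for ADAMTS1 and ADAMTS5 on chromosome 21, 0.058 and 0.098 for ADAMTS8 and ADAMTS15 on chromosome 11, and 0.065 and -0.049 for ADAM21 and ADAM20 on chromosome 14.

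Among the ADAMTS proteases, 10 of 18 genes passed the filter and none passed the test. The proteoglycanases, which cut aggrecan and versican, had 6 of 7 past the filter, with a median log2 fold change of 0.032. ADAMTS20 was lowest of them. It read 5.12, 5.30 and 4.85 in fusion tumors and 5.58, 5.23 and 5.36 in vector tumors. Fusion tumor 2 lay above vector tumor 2, so the groups overlapped (log2 fold change -0.30, SE 0.14, limma adjusted p = 0.892; exact permutation p = 0.2). Without vector tumor 1 the value was -0.21 and without fusion tumor 3 it was -0.18. A second ADAMTS20 probe set, far below the filter at 3.38, gave 0.084. ADAMTS9 read 5.21, 5.30 and 5.49 in fusion tumors and 5.45, 5.46 and 5.28 in vector tumors. Its groups were interleaved (log2 fold change -0.065). ADAMTS15 (0.098), ADAMTS1 (0.079), ADAMTS5 (0.044) and ADAMTS4 (0.020), the last pair being the aggrecanases of cartilage, were slightly above 0 with intervals inside 1.5-fold. ADAMTS5 had the mean nearest above the filter (4.96), and ADAMTS8 (4.11) was the proteoglycanase below it.

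The procollagen N-propeptidases, which trim fibrillar procollagens, had ADAMTS2 and ADAMTS14 past the filter. ADAMTS14 read 5.20, 5.06 and 5.13 in fusion tumors and 5.29, 5.30 and 5.15 in vector tumors. Only fusion tumor 1 and vector tumor 3 crossed (log2 fold change -0.12, limma adjusted p = 0.962). The other ADAMTS14 probe set, at 5.03, pointed the opposite way with 0.18. ADAMTS2 stood at 0.052. ADAMTS3, the third of this group, had a mean of 4.82 just below the filter and was not tested. Its probe set of highest mean gave -0.15, and the 2 others gave -0.83 and -0.38 with all fusion tumors below all vector tumors. The probe set with -0.83, singled out after its values were seen, read 4.13, 4.30 and 4.49 in fusion tumors and 5.35, 5.33 and 4.75 in vector tumors. This was the largest difference in size among the 116 probe sets of the family, and its mean (4.73) was in the dim range.

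ADAMTS13, which cuts von Willebrand factor in blood, read 6.44, 6.16 and 6.20 in fusion tumors and 5.82, 6.26 and 6.20 in vector tumors. Vector tumor 1 was lowest and fusion tumor 1 highest, and the rest overlapped (log2 fold change 0.18, limma adjusted p = 0.962). Without vector tumor 1 it was 0.040. A second ADAMTS13 probe set gave -0.0053. ADAMTS12, which cuts cartilage oligomeric matrix protein, stood at 0.020 (95% confidence interval -0.25 to 0.29). The 6 fibrillin-linked and orphan proteases ADAMTS6, ADAMTS10, ADAMTS16, ADAMTS17, ADAMTS18 and ADAMTS19 were all below the filter.

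ADAMTSL4, a matrix protein of the lens zonule that binds fibrillin, had the smallest p of the family. It read 7.32, 7.05 and 7.27 in fusion tumors and 6.84, 6.97 and 6.93 in vector ones. All fusion tumors lay above all vector tumors, with fusion tumor 2 nearest to them. The log2 fold change was 0.30 (SE 0.10, 1.23-fold, unadjusted p = 0.0190 and adjusted p = 0.683 by limma; exact permutation p = 0.1). The log2 fold change was 0.246 and the unadjusted limma p 0.0640 without fusion tumor 1, and the p was 0.0693 without fusion tumor 3. Groups separated in this way in 1 of 28 members, against 5.94% of all genes tested. The 2 other ADAMTSL4 probe sets gave 0.26 and 0.23, the first again with all fusion tumors above all vector tumors. The probe set used is of a type whose probes can also match other transcripts. Those used for ADAM8, ADAM9, ADAM33, ADAMTS4 and ADAMTSL2 are of this type as well. The ADAMTSL4 probe set used was highest in fusion tumors 1 and 3, while both other ADAMTSL4 probe sets were highest in fusion tumor 2. The fibroblast markers, whose mean was also higher in every fusion tumor, are given above, and their part in the ADAMTSL4 value was not tested.

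ADAMTSL4-AS1, the antisense RNA named for ADAMTSL4 and encoded near it on chromosome 1, was the one member of the 28 tested in which all fusion tumors lay below all vector tumors, against 5.74% of all genes tested. It read 5.01, 4.95 and 5.00 in fusion tumors and 5.11, 5.12 and 5.04 in vector tumors. The difference was small (log2 fold change -0.11, limma adjusted p = 0.962), the level was close to the filter, and no source used here says how its probes separate the strands. The other ADAMTS-like genes past the filter, which also code for matrix glycoproteins without protease activity, were near 0. ADAMTSL5 stood at 0.037, ADAMTSL2 at 0.00049 and ADAMTSL1 at -0.049. ADAMTSL1 varied within both groups, with 5.76 in fusion tumor 1 and 5.63 in vector tumor 1 against 4.92 to 5.18 in the other 4 tumors.

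**Figure D3:**
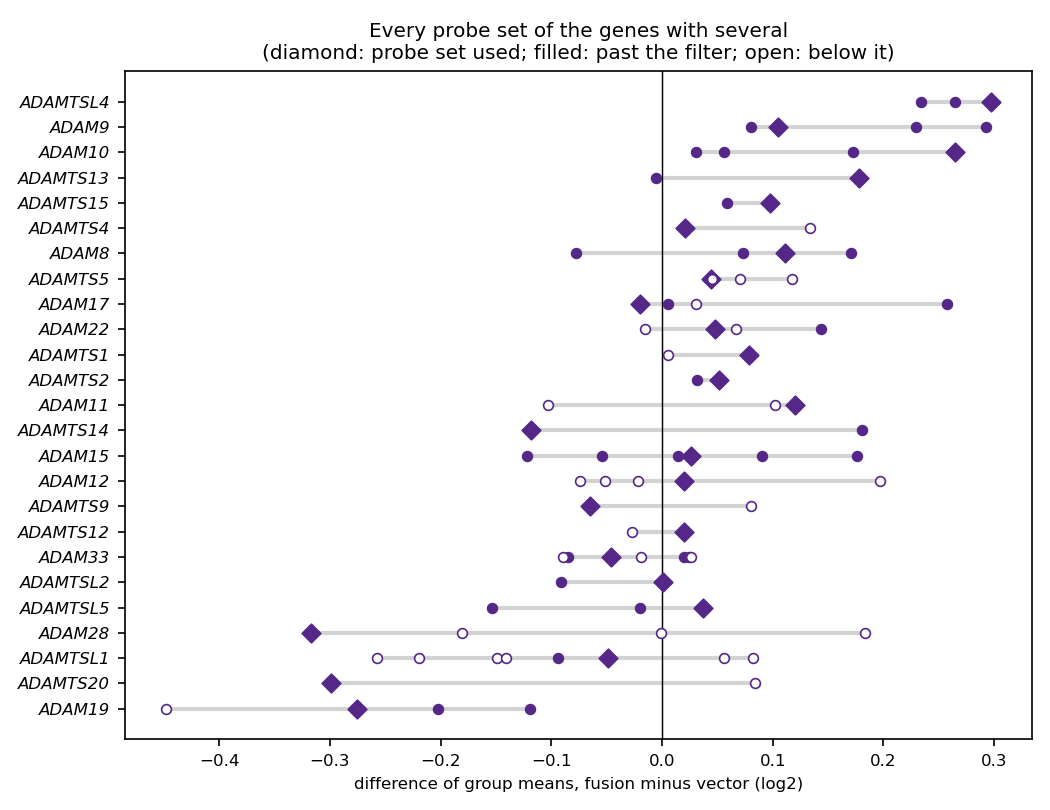
Difference of group means (fusion minus vector, log2) of every probe set of the tested genes that have several, with a diamond for the probe set used and open symbols for probe sets below the filter. ADAMTSL4, ADAM9 and ADAM10 have all probe sets above 0, and ADAM19 has all 4 below 0.

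Probe sets of the same gene often disagreed in sign at these small sizes. Of the 31 members with several probe sets, 11 had all differences on one side of 0, and of the 16 with several past the filter, 8 did. All fusion tumors lay above all vector tumors in 10 of the 116 family probe sets (8.62%, background 5.99% of probe sets naming 1 gene) and below them in 9 (7.76%, background 4.95%). Probe sets of 1 gene can share probes, so these counts are not independent.

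Log2 fold changes above 0 were more frequent than below, in 19 of 28 members (background 50.8% of all genes tested). Fusion tumor 1 gave the highest value of the 6 tumors in 11 members (39.3%, against 18.5% of all genes). Without fusion tumor 1, 13 of 28 were above 0, and with any other tumor left out 16 to 19 were. With each array centred on its median 14 were, when 41.2% of all genes were. With array weights 13 were (49.9% of all genes). With the filter at the 50th percentile 10 of 12 were (51.8% of all genes). The mean of probe sets gave 16 of 21 and the most variable probe set 16 of 23 (53% of all genes for each). The cause was not tested. Vector tumor 1 was the lowest tumor in 9 members (32.1%, against 28.8% of all genes).

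The 16 members below the filter had mean log2 levels from 3.22 (ADAM2) to 4.82 (ADAMTS3) and were not tested. They were ADAM2, ADAM3A, ADAM18, ADAM20, ADAM21, ADAM29, ADAM30, ADAMTS3, ADAMTS6, ADAMTS8, ADAMTS10, ADAMTS16, ADAMTS17, ADAMTS18, ADAMTS19 and ADAMTSL3. The testis proteases ADAM20, ADAM21 and ADAM30 and the sperm proteins ADAM2, ADAM18 and ADAM29 were all in this range. Their differences ran from -0.38 (ADAMTS6) to 0.28 (ADAM3A). ADAMTS6 read 3.90, 4.15 and 4.01 in fusion tumors and 4.29, 4.37 and 4.54 in vector tumors. All fusion tumors lay above all vector tumors in ADAM3A and ADAM18 (background 5.99% of probe sets naming 1 gene) and below them in ADAMTS6 (background 4.95%). Across the filter, the nearest members were ADAMTS3 (4.82) and ADAMTS17 (4.70) below, and ADAMTS5 (4.96), ADAMTSL4-AS1 (5.04) and ADAM32 (5.14) above.

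**Figure D4:**
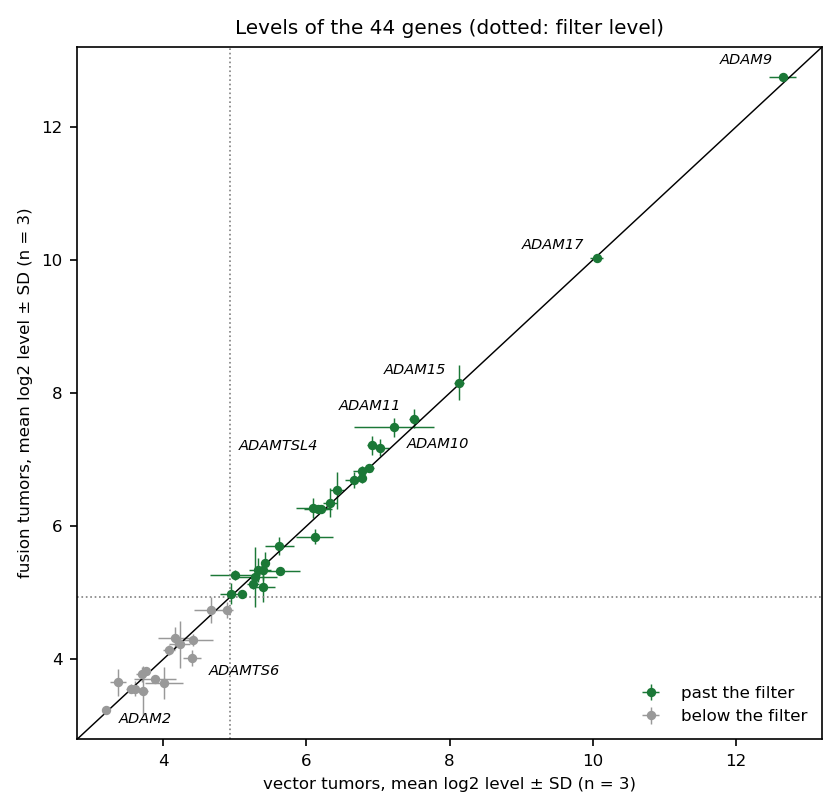
Mean log2 level of the 44 genes in vector tumors (x axis) and fusion tumors (y axis) with SD (bars, n = 3 each) and the filter level of 4.94 as dotted lines. All genes lie close to the line of equality, with ADAM9 at 12.70 the brightest and ADAM2 at 3.22 the dimmest.

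Promoter sequence is a feature that the definition of the family did not use. Windows of 250 bases before the start site were found for 29 of the 44 genes in the RefSeq promoter table (GRCh38.p14). The 18 past the filter had a median of 25 CG dinucleotides (range 1 to 40) and a median GC content of 73.6%. The 11 below the filter had a median of 17 (range 0 to 40) and 62.4%. All 27303 promoters of the table had a median of 11 and 58.0%. They were not split by the filter, so the members past it have no background of other genes past it. The GC box GGGCGG, searched on both strands, was present in 15 of the 18 and in 6 of the 11, against 42.3% of all promoters. The TATA box TATAAA was present in 1 of the 18 and 1 of the 11 (11.1% of all), and the AP-1 motif TGANTCA in 1 of the 18, ADAMTS12, and 0 of the 11 (6.60% of all). These matches describe letters in a window and do not show binding. The ranges overlapped, and ADAMTSL3, below the filter, had 40 CG dinucleotides. Windows are shown for ADAMTSL4, which had the smallest p, for ADAM17, one of the brightest members, and for ADAM29, one of the dimmest, with CG dinucleotides in capitals.
ADAMTSL4 (chr1:150549158-150549407, plus strand): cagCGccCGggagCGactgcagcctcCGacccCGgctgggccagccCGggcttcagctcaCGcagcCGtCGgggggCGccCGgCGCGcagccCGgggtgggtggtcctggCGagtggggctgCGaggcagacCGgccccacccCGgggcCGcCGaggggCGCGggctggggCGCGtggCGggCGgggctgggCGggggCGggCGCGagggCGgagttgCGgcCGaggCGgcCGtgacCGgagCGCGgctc
ADAM17 (chr2:9555831-9556080, minus strand): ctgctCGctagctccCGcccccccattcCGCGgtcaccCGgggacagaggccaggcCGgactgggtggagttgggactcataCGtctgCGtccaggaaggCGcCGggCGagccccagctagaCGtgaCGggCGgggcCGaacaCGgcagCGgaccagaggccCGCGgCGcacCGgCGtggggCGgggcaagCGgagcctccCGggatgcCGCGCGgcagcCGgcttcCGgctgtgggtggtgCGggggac
ADAM29 (chr4:174918108-174918357, plus strand): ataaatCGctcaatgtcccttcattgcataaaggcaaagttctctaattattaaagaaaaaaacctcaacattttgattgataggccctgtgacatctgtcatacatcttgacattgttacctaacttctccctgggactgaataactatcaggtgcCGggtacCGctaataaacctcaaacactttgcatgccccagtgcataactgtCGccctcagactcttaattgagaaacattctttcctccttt
ADAMTSL4 had 38 CG dinucleotides in this window, ADAM17 had 31 and ADAM29 had 4.

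The proteins that hold this family in check gave 0 calls by limma. Of 9 inhibitor genes 6 were tested, with 3 log2 fold changes above 0 and 3 below and a median of -0.018. TIMP1, a broad inhibitor of matrix metalloproteinases and of ADAM10, had 0.72 (SE 0.20, unadjusted p = 0.00561) with no overlap between groups. TIMP3, the inhibitor that acts most widely on ADAMs and ADAMTS proteases and on ADAM17 in particular, had 0.052, and RECK, a membrane-bound inhibitor of ADAM10, had -0.11. SPOCK2, a testican proteoglycan, had -0.12.

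Factors that mature or transport these proteases gave 0 calls among 16 tested of 17, with 11 above 0 (background 50.8% of all genes tested) and a median of 0.035. RHBDF2, which codes for iRhom2, the partner that carries ADAM17 to the cell surface, had a log2 fold change of 0.28 (SE 0.099, unadjusted p = 0.0220 and adjusted p = 0.703 by limma). The fusion tumors read 8.88, 8.81 and 8.93 and the vector tumors 8.46, 8.72 and 8.61, without overlap. RHBDF1, coding for iRhom1, had 0.12, also without overlap, and PACS2 had -0.069 with all fusion tumors below all vector tumors. Over all genes tested, 5.94% had all fusion tumors above and 5.74% had them below. The convertase PCSK7 had 0.14. FURIN, the convertase that removes the prodomain of many ADAMs, had -0.11, and the ADAM10-guiding tetraspanins TSPAN5, TSPAN14, TSPAN15 and TSPAN33 had 0.043, 0.014, -0.0018 and 0.067.

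Substrates shed from the cell surface gave 0 calls among 37 tested of 46, with 20 above 0, 17 below and a median of 0.016. MET, the hepatocyte growth factor receptor, had the smallest p. It read 10.20, 10.20 and 10.15 in fusion tumors and 9.82, 9.60 and 9.52 in vector tumors, with no overlap (log2 fold change 0.54, unadjusted p = 0.000649 and adjusted p = 0.239 by limma). MERTK, a receptor kinase for apoptotic cell debris, had 0.70 and IL6R, the interleukin 6 receptor, -0.20, both with an unadjusted p below 0.05 and no overlap. Ligands of the EGF receptor that ADAM17 and ADAM10 release gave 0.50 for HBEGF, whose groups overlapped, and 0.016 for TGFA, while BTC, EGF, EPGN and EREG were below the filter. NOTCH1, NOTCH2 and NOTCH3 had 0.086, -0.060 and -0.034.

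Matrix substrates of the ADAMTS proteases and related proteins gave 0 calls among 22 tested of 27, with 3 higher and 4 lower at an unadjusted p below 0.05 (background 3.16% and 2.73% of all genes tested). The list was chosen with earlier results of these data known, so these counts beside the background are no test of the list. VEGFC, a lymphatic growth factor processed by ADAMTS3, had 0.72 (SE 0.16), NID1, the basement membrane protein nidogen, -0.72 (SE 0.18) and FBN1, fibrillin of the microfibrils, -0.50 (SE 0.14), each without overlap. LTBP1, which stores latent TGF-beta in the matrix, had -0.84 and TFPI2, a serine protease inhibitor, -0.72. COL1A1 (0.65) and COL1A2 (0.24), which code for the chains of type I procollagen cut by ADAMTS2, ADAMTS3 and ADAMTS14, are fibroblast markers as well, and the part of host cells was not tested. The proteoglycans VCAN and BCAN were below the filter, and ACAN had 0.023. Without vector tumor 1, MET (0.63, adjusted p = 0.0421) and NID1 (-0.91, adjusted p = 0.0440) passed the limma threshold, and 0 of 28 family members did. In that fit 37 of all genes tested were called, against 10 with all tumors. With any other single tumor left out, 0 related genes were called.

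**Figure D5:**
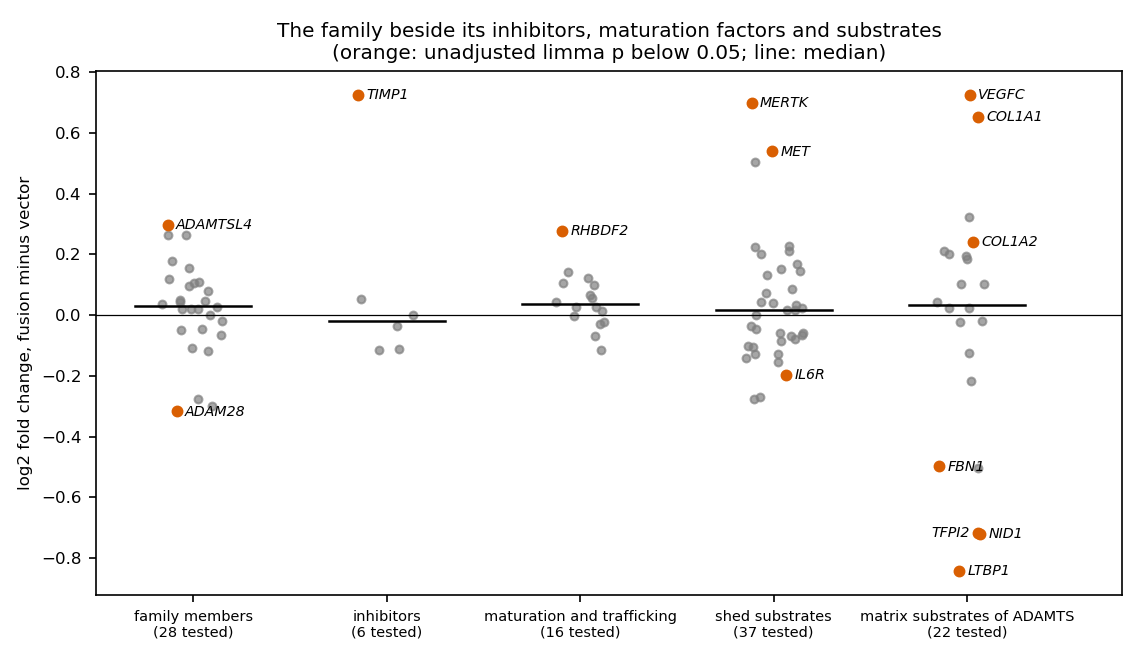
Log2 fold change (fusion minus vector) of the 28 tested family members and of the tested genes of 4 related lists, with unadjusted limma p below 0.05 in orange and list medians as lines. The family spans -0.32 to 0.30, while the matrix substrates reach from -0.84 (LTBP1) to 0.72 (VEGFC).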

How the data were processed

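RNA of 6 xenograft tumors was labelled with biotin and hybridised to 1 array each, per the labels. Values deposited by the authors were log2 levels per probe set, as their range shows; how background, normalization and summarisation were done is not given in the sources used. Array medians ran from 6.27 to 6.39, and the number of arrays limits the precision. Groups and replicate numbers came from the sample titles. Of 49293 probe sets, 44988 named 1 gene in the platform annotation, and 44 of 44 family genes matched RefSeq (GRCh38.p14) by gene identifier, with 0 symbols differing. The array files name no build, so RefSeq supplied the gene order and the promoter windows, and no probe set was placed by coordinate. The group comparison used limma (version 3.58.1, R version 4.3.3) without a block, two-sided, over 13694 genes, with Benjamini-Hochberg adjustment at 0.05. Genes with a mean below the 30th percentile were left out. The model was tested on simulated data, where it recovered 48.4% of 1.5-fold changes, 83.5% of 2-fold and 98.1% of 4-fold ones. Each simulated run held 200 changed genes, while 10 genes were called in the data. The adjustment is stricter when fewer genes change, so these shares cannot be carried over to the data. Promoter windows were read from the RefSeq table, with motifs searched on both strands; figures used matplotlib 3.10.9.

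The members, role groups and lists were chosen with earlier results of these data known. Values in every tumor are given for up to 6 members per direction with the smallest p and the 6 brightest, and up to 3 genes are named from each related list by p, with others named for their role. Alternatives covered the filter, the probe set per gene, quantile normalization, median centring, a trended robust variance, array weights, a block for replicate number, and each tumor left out.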

Additional observations from a re-analysis of the deposited data

Results flagged for a closer look

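In 9 probe sets of the family that the comparison did not use, because another probe set of the gene was brighter or because they lay below the filter, every fusion tumor read above every vector tumor. They were 9 of 88 such probe sets, and 8 of the 88 showed the opposite order. Over all probe sets naming 1 gene, 5.99% had this order and 4.95% the opposite one. Differences past the filter were 0.23 and 0.29 for ADAM9 (means 11.17 and 10.80), 0.26 for ADAMTSL4 (6.29), 0.18 for ADAM15 (7.65) and 0.18 for ADAMTS14 (5.03). Below the filter they were 0.28 for ADAM3A, 0.18 for ADAM28, 0.12 for ADAMTS5 and 0.062 for ADAM18, all at mean log2 levels under 4. For the 8 in the opposite order, differences past the filter were -0.12 for ADAM15 and -0.12 for ADAM19. Below the filter these were -0.45 for ADAM19, -0.83 and -0.38 for ADAMTS3, -0.38 for ADAMTS6, and -0.22 and -0.26 for ADAMTSL1. ADAM15 thus had probe sets past the filter in both orders. No group has more than 3 tumors, so single tumors were not tested for standing apart.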

How the results depend on the processing

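In all 15 alternatives 0 members were called, and the smallest adjusted p of a member was 0.180, for ADAMTSL4 with array weights. The log2 fold change of ADAMTSL4 stayed between 0.23 and 0.38. That of ADAM28, tested in 13 of the 15, stayed between -0.46 and -0.19. ADAM28 was not always the member lower at unadjusted limma p below 0.05. This member was ADAM19 with the mean of probe sets, and ADAMTS20 with array weights or without fusion tumor 2. Signs stayed the same in 14 of 28 members, and 42 of 392 refitted values changed sign. The family median stayed between -0.0071 and 0.079.

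The count of members higher at unadjusted p below 0.05, 1 with all tumors, was 2 with no filter (ADAMTSL4 and ADAM3A), 2 with array weights (ADAMTSL4 and ADAMTS15) and 0 with the most variable probe set, and ran from 0 to 1 when single tumors were left out (0 without fusion tumor 1 or fusion tumor 3). The count lower, 1 with all tumors, was 3 with no filter (ADAM28, ADAMTS6 and ADAMTSL3), 0 with the filter at the 50th percentile, 0 with the most variable probe set, 0 with the trended robust variance and 0 with the replicate block, and ran from 0 to 3 with single tumors left out (3 without vector tumor 2, which were ADAM19, ADAM28 and ADAMTS20, and 0 without fusion tumor 1, fusion tumor 3, vector tumor 1 or vector tumor 3). Calls over all genes were 10 with all tumors, 1 with the filter at the 50th percentile, 16 with the mean of probe sets, 6 with the most variable probe set and 140 with array weights, and 0 to 37 with single tumors left out (0 without fusion tumor 1, 37 without vector tumor 1). Related genes called were 0 with all tumors, 4 with array weights (MET, VEGFC, NID1 and FBN1) and 0 to 2 with single tumors left out. The cause was not tested.

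Correlations of deviations between tumors of the same replicate number were 0.097, 0.17 and 0.051. Each fusion tumor correlated best with its own number, in 3 of 3. The labels do not state that the number pairs tumors, and correlations this weak cannot settle whether it does. With the replicate block 0 members were called. Dim probe sets have an unknown background, so small folds there are limited by signal.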
